A study of Mus musculus with 32 samples.

Results

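The comparison described here is that of the injured with the non-injured side of mouse cortex 1 day after a stab wound, in microglia sorted by their yellow fluorescence. It takes 8 of the 32 samples of a time course that covered days 1, 4, 7 and 14: at day 1, the samples labelled as injury or sham, in females and in males, with 2 columns each. The mice were adult C57BL/6, heterozygous for Cx3cr1CreER, an allele that carries an inducible recombinase in the fractalkine receptor gene, and both sides of the brain carry it. At 8 to 10 weeks of age they had received tamoxifen, 180 mg/kg from a 30 mg/ml stock, in 5 daily injections, which switches on the fluorescent protein EYFP in microglia. The recombinase acts in every cell that uses this gene, so that other brain macrophages can be labelled too. The control tissue comes from the corresponding place in the opposite, unwounded hemisphere. The titles name it sham, although no sham operation is described.

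Microglia are the resident macrophages of the brain. In healthy cortex they survey the tissue with fine processes, steered by purinergic receptors that sense nucleotides, and depend on signals such as TGF-beta and colony-stimulating factor 1 to keep their identity. When a wound opens the tissue and its vessels, they meet dying cells, blood proteins and heme, move towards the damage, secrete cytokines and chemokines, and take up debris.

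The 2 columns of each group differed by little more than counting noise (median chi-square per gene 0.498 to 0.599 at day 1, with 0.455 for counting noise alone, and 33.9 and 43.9 between the sexes of 1 side). They were summed, which left 4 day 1 libraries: 1 female and 1 male library per side. Nothing in the labels says which samples come from separate animals, and the p-values therefore reflect the variation among these libraries alone, part of which may be technical. The libraries held 26003119 to 36619372 counts, and 18834 and 21570 genes were detected in the female ones against 32541 and 31552 in the male ones. Values are given in CPM, counts per 1000000 of the scaled library size, with the female library first and the male one second. The recombinase locus Cx3cr1 lay at 12 and 15.8 CPM at the wound and at 29.1 and 39.4 CPM on the other side (log2 difference -1.30, adjusted p = 0.222). The 12 microglia markers had a summed level of 21280 and 11180 CPM at the wound and 42310 and 36580 CPM on the other side. Of these markers 4 fell, Csf1r, P2ry12, Tmem119 and Sall1, and 0 rose.

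At day 1, 301 of 28597 genes tested (1.05%) were called at an adjusted p under 0.05. Of these, 135 rose (0.472% of the genes tested) and 166 fell (0.58%). These shares are the ones to set beside the number of called genes in each list below. The smallest called change was 2.92-fold. All 135 rises were higher in both sexes, and all 166 falls were lower in both. Their median log2 differences on a scale with 1 CPM added were 3.15 in the female pair and 2.90 in the male pair for the rises, and -2.63 and -2.71 for the falls. The test draws its spread from female minus male effects over the 4 days, so genes whose day 1 pairs disagree could hardly be called. The number called is therefore a property of this spread as well as of day 1: with either the female or the male day 1 pair left out, 0 were called in edgeR, although 2294 and 2261 genes then had an unadjusted p under 0.05. Leaving out 1 later pair gave between 52 and 845 calls. The number was 52 without day 7 females, 73 without day 7 males, 177 without day 14 males, 668 without day 14 females, 726 without day 4 males and 845 without day 4 females. Among the 8464 genes that averaged 10 CPM or more, 232 were called (2.74%), 111 higher (1.31%) and 121 lower (1.43%). The authors' deposited table for day 1, from another fit to the same day 1 samples, calls 3408 genes. Of the 301, 296 are among these 3408 in the same direction, which is 98.3% of the 301 and 8.69% of the authors' calls. With the samples shared, the overlap is not an independent check.

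**Figure D1:**
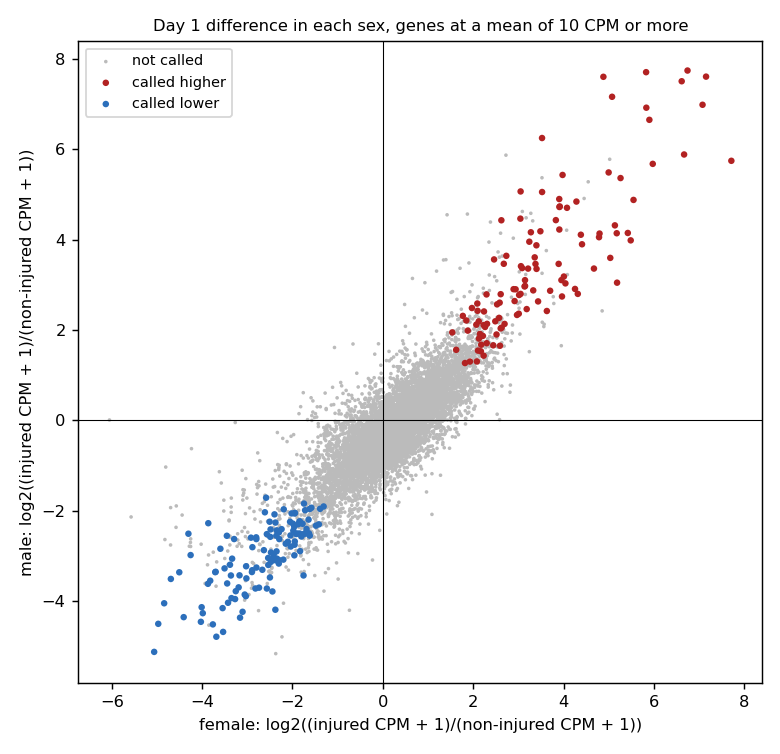
Each point is 1 of 8464 genes with 10 CPM or more on average in the 4 day 1 libraries, placed by its log2 difference (injured minus non-injured, 1 CPM added) in the female pair on the horizontal axis and the male pair on the vertical axis. The 111 called rises lie in the upper right and the 121 called falls in the lower left.

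Among genes that averaged 10 CPM or more, the largest rises were those of immune effectors, proteases and scavenger receptors. The gene Acod1 makes the immune metabolite itaconate (chr14:103046977-103056573 of GRCm38). It stood at 72.1 and 53.2 CPM at the wound and at 0.162 and 0.0563 CPM on the other side (log2 change 9.12, SE 1.41, adjusted p = 0.0186). Only 8 counts stood behind the 2 non-injured values, so no fold is given. Il1rn, the secreted antagonist of the interleukin 1 receptor (chr2:24336853-24351494), rose 163-fold, to 763 and 591 CPM from 4.66 and 3.66 CPM (SE 0.63 on the log2 scale, adjusted p = 0.00609). Adam8, a membrane metalloprotease of leukocytes (chr7:139978932-139992562), rose 190.0-fold, to 1532 and 1192 CPM from 9.75 and 5.10 CPM (SE 0.74, adjusted p = 0.00677). In these genes the female and the male value on each side lay close together compared with the gap between sides. Spp1, the secreted phosphoprotein osteopontin, stood at 8274 and 1957 CPM against 76.1 and 8.11 CPM (log2 change 7.31, SE 1.17), and its sexes lay further apart.

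Arg1, the arginase that splits arginine to ornithine and urea, stood at 175 and 103 CPM against 0.727 and 0.761 CPM. Ch25h, which makes 25-hydroxycholesterol, stood at 774 and 520.2 CPM against 6.90 and 1.86 CPM. The scavenger receptors Marco (200.3 and 142 against 2.37 and 0.423 CPM) and Msr1 (1779 and 970.0 against 30.3 and 3.63 CPM) rose together with Clec4e, a C-type lectin that recognises dead cells and microbes (52.3 and 27.2 against 0.242 and 0.592 CPM). Lgals3, the galactose-binding lectin galectin 3, was at 1094 and 456 against 18.2 and 2.76 CPM, and the inhibitory receptor gene Lilrb4a, which has a close paralog that may share its reads, at 1156 and 865 against 38.2 and 3.44 CPM. Mmp12, the macrophage elastase, was at 385 and 99.7 against 0.835 and 0.873 CPM. Fosl1, a subunit of the transcription factor AP-1, S100a8, a calcium-binding alarmin, and Htr2b, a serotonin receptor (46.2 and 7.51 against 0.296 and 0.0282 CPM), complete the 15. In all 15 the 4 injured columns lay above the 4 non-injured ones, which was a condition for choosing them.

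**Figure D2:**
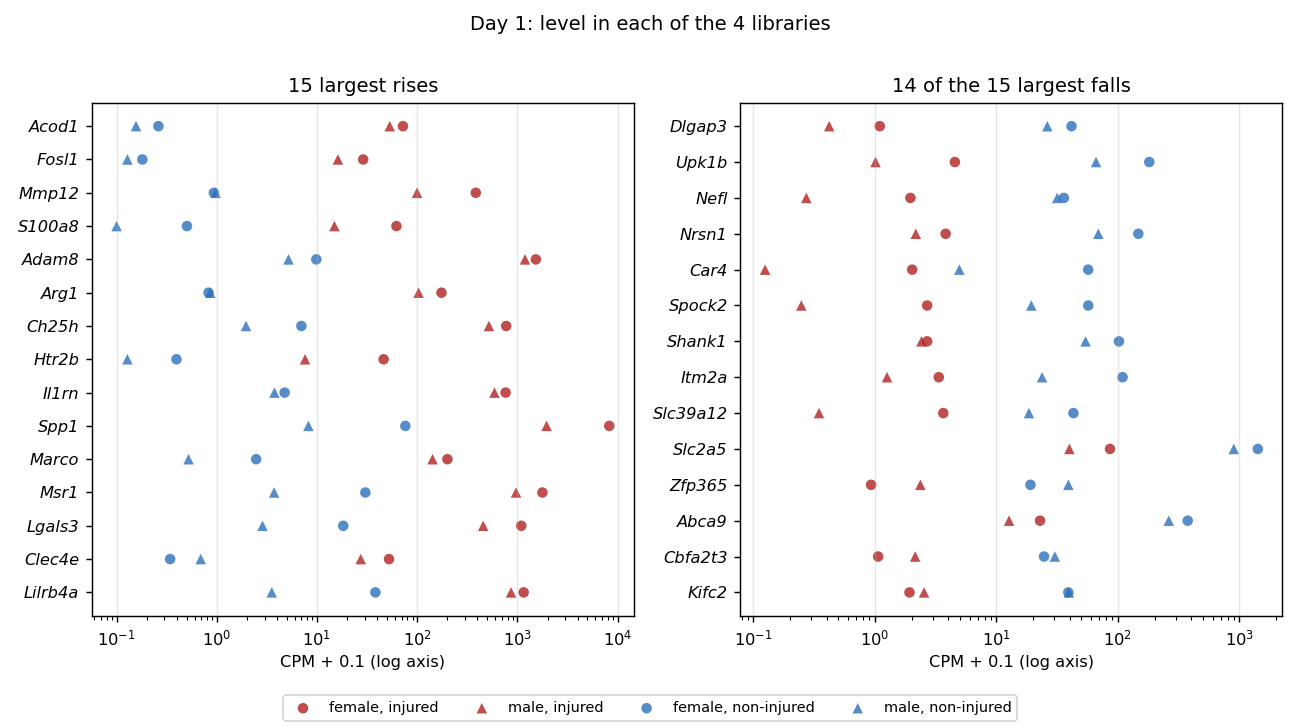
Level of the 15 largest rises and 14 of the 15 largest falls in each of the 4 day 1 libraries, as CPM + 0.1 on a log axis. Circles are female, triangles male, red the injured and blue the non-injured side. The colours do not overlap within a gene, because only such genes were chosen.

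Genes of the homeostatic state, which mark undisturbed microglia, held many of the falls. Of 32 genes in this list, 15 fell against 0.58% of all genes, and 29 of 32 had all 4 injured columns below all 4 non-injured ones, against 15.6% of all genes and 22.6% of those averaging 10 CPM or more. The list's median log2 change was -1.72 against -0.05 over all genes tested. P2ry12, the ADP receptor that steers microglial processes (chr3:59216272-59262871), fell 17.7-fold, to 252 and 149 CPM from 3435 and 3449.5 CPM (SE 0.47, adjusted p = 0.0105). Tmem119, a membrane protein used as a marker of microglia, fell 6.68-fold, to 1405 and 617 CPM from 7289 and 5304 CPM (adjusted p = 0.00827). Upk1b, a tetraspanin, had the largest fall of the list, to 4.44 and 0.91 CPM from 181 and 65.9 CPM (log2 change -5.68, SE 0.54, adjusted p = 0.00609). Slc2a5, the fructose transporter of microglia, fell to 85.8 and 39.7 CPM from 1416 and 898 CPM. Siglech, a sialic acid-binding lectin, fell to 73.6 and 48.2 from 667 and 1017 CPM, and Adgrg1, an adhesion receptor, to 82.3 and 83.6 from 794 and 1166 CPM.

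Further called members, named after their values were seen, were the selectin ligand Selplg (log2 -3.46), the lysophosphatidylserine receptor Gpr34 (-2.60), the matrix protein gene Sparc (-2.11), the crystallin Crybb1 (-3.07) and the immune checkpoint Vsir (-2.22). Csf1r, the receptor on which microglial survival depends, fell by 1.68 on the log2 scale, to 2761 and 2374 CPM from 7236 and 9248 CPM (adjusted p = 0.0214). Cst3, the secreted protease inhibitor cystatin C, did not pass the test (log2 -1.33, adjusted p = 0.0731). Fewer microglia among the sorted cells and less RNA of these genes per cell cannot be told apart in such bulk samples. The general macrophage and leukocyte genes Ptprc (589.6 and 312 against 445 and 352 CPM), Itgam (915 and 894 against 605 and 1017 CPM) and Tyrobp (769 and 341 against 672 and 367 CPM) did not pass the test.

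Purinergic genes sense or degrade nucleotides. Of 20 tested, 2 rose (against 0.472% of all genes) and 2 fell (against 0.58%). The list's median showed no steady direction: it was -0.70 in the fitted changes and 0.11 in DESeq2, and -0.32 in the female and 0.03 in the male pair with 1 CPM added. Besides P2ry12, Entpd1, the ectoenzyme CD39 that degrades ATP and ADP, fell to 126 and 50.2 CPM from 893 and 677 CPM (log2 -3.29, adjusted p = 0.0213). P2ry2, a receptor for ATP and UTP, rose to 30.4 and 41.3 CPM from 0.862 and 0.62 CPM (log2 5.57, adjusted p = 0.0186). Adora2b, the low-affinity adenosine receptor, rose to 24.0 and 17.2 CPM from 1.40 and 0.648 CPM (log2 4.35, adjusted p = 0.0481), with a log2 difference of 0.07 at day 4. P2ry13, a second ADP receptor, stood at 371 and 253 against 1600.0 and 1825 CPM (adjusted p = 0.0558). P2ry6, the UDP receptor linked to phagocytosis, stood at 703 and 402 against 588 and 584 CPM.

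Among 32 transcription factors of microglia and macrophages, 1 rose (against 0.472% of all genes) and 3 fell (against 0.58%). Sall1, a zinc finger protein of microglial identity, fell to 65.2 and 60.6 CPM from 293 and 408 CPM (log2 -2.46, adjusted p = 0.0213). Maf fell by 2.08 on the log2 scale with an adjusted p of 0.04995, just under the threshold, and Nr1d1, a repressor of the circadian clock, by 3.37. Id2, an inhibitor of helix-loop-helix factors, rose to 532 and 598 CPM from 155 and 119.6 CPM (log2 2.05). Irf8 (log2 -0.57) and Bhlhe41 (-0.45) did not pass the test. Of 31 genes of the TGF-beta pathway, 1 fell, against 0.58% of all genes. In 15 all injured columns lay below the non-injured ones, against 15.6% of all genes and 22.6% of those averaging 10 CPM or more. The one called was Tgfbr1, which encodes a signalling subunit of the TGF-beta receptor, at 253 and 158 CPM against 983 and 1071 CPM (log2 -2.36, adjusted p = 0.035).

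Of 30 cytokine genes tested, 3 rose and 1 fell. Il1b, the inflammatory interleukin 1 beta, rose to 106 and 62.7 CPM from 16.6 and 8.20 CPM (log2 2.80, adjusted p = 0.0461), a smaller change than that of its antagonist Il1rn. Tnfsf9, the ligand of the T cell receptor 4-1BB, rose to 165 and 27.1 CPM from 11.7 and 2.85 CPM. Il16, a chemoattractant of CD4+ cells, fell to 18.2 and 17.0 CPM from 175 and 233 CPM (log2 -3.52, adjusted p = 0.013). Tnf stood at 419 and 297 against 213 and 89.1 CPM (adjusted p = 0.281), and Il1a was lower at the wound, at 266 and 99.1 against 435 and 189.8 CPM (adjusted p = 0.422). Il6, named after its value was seen, stood at 8.46 and 4.40 CPM at the wound and 5.31 and 6.62 CPM on the other side, and the 2 sides overlapped.

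Chemokines had the highest median of the 39 gene lists in the fitted changes, 2.04. With 1 CPM added their pair medians were 1.10 and 0.90, below those of ribosomal proteins (1.62 and 1.41), matrix genes (1.37 and 1.28) and ribosome biogenesis (1.25 and 1.03). Of 31 tested, 3 rose, and 15 had all injured columns above the non-injured ones, against 9.81% of all genes. Ccl12, a ligand of the monocyte receptor CCR2, rose 19.2-fold, to 4021 and 1066 CPM from 192 and 60.8 CPM (SE 0.39, adjusted p = 0.00609). Cxcl16, which binds CXCR6, rose to 990.2 and 392 CPM from 176 and 85.0 CPM, and Cxcl10, which draws T cells through CXCR3, to 150.2 and 88.2 CPM from 16.1 and 10.3 CPM. Ccl4 (1522 and 1120.3 against 436 and 167 CPM, adjusted p = 0.122), Ccl3 (1270.3 and 1118 against 380.3 and 202 CPM, adjusted p = 0.133) and Ccl2 (1256 and 755 against 295 and 191 CPM, adjusted p = 0.147) did not pass the test, with both sexes higher at the wound in each.

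Of 38 genes of the type I interferon response, 1 rose, against 0.472% of all genes. In 17 all injured columns lay above the non-injured ones, against 9.81% of all genes and 21.2% of those averaging 10 CPM or more. In none did they lie below. The called gene was Rsad2, the antiviral enzyme viperin, at 113 and 44.0 CPM against 12.4 and 3.35 CPM (log2 3.42, adjusted p = 0.0382). Ifit3 (595 and 98.8 against 80.5 and 22.1 CPM, adjusted p = 0.0705) and Isg15 (41.5 and 11.7 against 5.28 and 2.34 CPM, adjusted p = 0.0754) did not pass it. The list's median log2 change was 1.29 at day 1 and 2.30 at day 4.

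Among 32 AP-1 and immediate early genes, 1 rose, against 0.472% of all genes. All injured columns lay below the non-injured ones in 11 and above them in 4. Over all genes this held for 15.6% and 9.81%, and over genes at 10 CPM or more for 22.6% and 21.2%. Fosl1 (chr19:5447547-5455946) was the one that rose, at 28.8 and 16.1 CPM against 0.0808 and 0.0282 CPM, with 4 counts behind the non-injured values (adjusted p = 0.0214). Jun stood lower at the wound, at 252 and 469 against 1257 and 2463 CPM (adjusted p = 0.0838), as did Egr1 at 789.6 and 1249.8 against 1907 and 2401 CPM (adjusted p = 0.38). Fos was at 1123 and 1066 against 1841 and 1422 CPM. Dusp1 (3505 and 1155 against 3943 and 809 CPM) and Zfp36 (1687 and 1781 against 1741 and 2695 CPM) did not pass the test.

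In the NF-kB list, 2 of 32 genes rose. Ikbke, an inhibitor of kappa B kinase that also acts in interferon signalling, stood at 43.2 and 27.7 CPM against 1.27 and 0 CPM, where a count of 0 in the male library allows up to 0.0844 CPM. Traf1, an adaptor of TNF receptors, rose to 23.1 and 23.2 CPM from 1.59 and 1.35 CPM (log2 3.97). Nfkbia, the feedback inhibitor, was at 1094 and 528 against 996 and 352 CPM (adjusted p = 0.773).

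The promoters of the called genes were read from RefSeq (GRCm38.p6, 250 bases before each annotated start). Entries were found for 100 of the 135 rises and 119 of the 166 falls. The AP-1 element TGACTCA, searched on both strands, was in 16 of 121 promoters of rises (13.2%) and in 5 of 161 promoters of falls (3.11%). It was in 4.46% of all 32851 promoters and in 3.96% of those of genes tested. Glrx and Sphk1 are counted more than once, for different annotated starts that share the same element. The interferon-stimulated response element was taken as GAAA and GAAA with any 2 bases between them and searched on both strands. It was in 9 of 121 promoters of rises (7.44%) and 6 of 161 promoters of falls (3.73%). It was in 2.98% of all promoters and in 2.8% of those of genes tested. The 2 elements do not overlap in the promoters shown, of which those of Cxcl10 and Rsad2 hold both. These matches are a description of the letters in this window and not sites of binding. The promoters of Il1rn, Mmp12, Plaur, Hspa5, Cxcl10 and Rsad2 are shown because these genes rose, as 60 bases on the gene's own strand, 5′ to 3′, with the element in capitals.
Il1rn, AP-1 element, chr2:24336693-24336752, plus strand: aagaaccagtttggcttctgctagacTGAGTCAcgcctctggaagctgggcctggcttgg
Mmp12, AP-1 element, chr9:7347304-7347363, plus strand: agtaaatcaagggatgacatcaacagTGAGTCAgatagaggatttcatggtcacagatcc
Plaur, AP-1 element, chr7:24462388-24462447, plus strand: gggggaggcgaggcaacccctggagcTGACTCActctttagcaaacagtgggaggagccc
Hspa5, AP-1 element, chr2:34771882-34771941, plus strand: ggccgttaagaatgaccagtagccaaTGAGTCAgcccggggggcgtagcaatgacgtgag
Cxcl10, AP-1 element, chr5:92348930-92348989, minus strand: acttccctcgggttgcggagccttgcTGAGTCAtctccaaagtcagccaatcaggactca
Cxcl10, interferon-stimulated response element, chr5:92349068-92349127, minus strand: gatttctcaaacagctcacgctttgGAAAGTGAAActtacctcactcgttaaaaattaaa
Rsad2, interferon-stimulated response element, chr12:26456538-26456597, minus strand: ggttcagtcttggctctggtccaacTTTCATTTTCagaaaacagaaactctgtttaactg

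Genes that handle heme and iron, which a bleeding wound releases, included 5 rises among 27 tested. Hmox1, the inducible heme oxygenase, rose 18-fold, to 809 and 488 CPM from 55.9 and 21.6 CPM (SE 0.38, adjusted p = 0.00609). The iron storage subunits Fth1 and Ftl1 stood at the wound at 21865 and 7715 CPM and 27816 and 7924 CPM. Both have near-identical copies elsewhere in the genome that may share reads. They rose 5.85-fold and 4.46-fold from 3787 and 1300.4 CPM and 6381 and 1735 CPM. Slc39a14, a zinc and iron importer, rose to 103 and 93.4 CPM from 5.68 and 9.97 CPM, and the haptoglobin gene Hp to 16.7 and 6.96 from 1.51 and 1.24 CPM. Trf, the iron carrier transferrin, stood at 1538 and 363 against 3907 and 1809.7 CPM (adjusted p = 0.0653). The 7 erythroid markers summed to 194 and 147 CPM at the wound against 70.6 and 22 CPM, nearly all of it globin RNA. Of the 5 tested, 0 were called in edgeR, 4 were higher at an unadjusted p under 0.05 and DESeq2 called 2, and their part in these results was not tested.

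Of 32 genes listed as antioxidant targets of NRF2, 3 rose. They were the peroxiredoxin Prdx1 (1008 and 531 against 133 and 84.2 CPM), the autophagy receptor Sqstm1 (946 and 875 against 325 and 226 CPM) and the pseudokinase Trib3 (34.6 and 22.3 against 0.673 and 0.564 CPM). Trib3 is controlled by the integrated stress response and is counted in that list as well. In 18 of 32 all injured columns lay above the non-injured ones, against 9.81% of all genes and 21.2% of those averaging 10 CPM or more. The gene for NRF2 itself, Nfe2l2, did not pass the test, at 220.1 and 159.6 against 209 and 205 CPM. Glrx, a glutaredoxin named after its value was seen, rose to 858 and 459 CPM from 23.4 and 22.1 CPM (log2 4.79).

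Glycolysis genes held 2 rises and 1 fall among 26 tested. Pkm, the pyruvate kinase gene, rose 7.61-fold, to 4842 and 2417 CPM from 584 and 346 CPM (adjusted p = 0.0276). Pgk1, phosphoglycerate kinase, rose 8.28-fold, to 955 and 264 CPM from 76.1 and 48.5 CPM. The fall was that of the fructose transporter Slc2a5, described above. Eno1 (log2 1.44), Aldoa (2.14), Ldha (2.08) and Gapdh (1.94) were higher in both pairs with adjusted p between 0.0595 and 0.154. None of 26 hypoxia response genes was called by edgeR. At an unadjusted p under 0.05, 10 were higher and 3 lower, and DESeq2 called 9 higher and 2 lower. In the list of arginine, polyamine and itaconate genes, 2 of 18 rose, Arg1 and Acod1, and the rate-limiting polyamine enzyme Odc1 stood at 24.0 and 48.7 against 7.00 and 8.90 CPM (adjusted p = 0.0994). Nos2, the inducible nitric oxide synthase, was scarce, at 2.29 and 0.566 against 0.0539 and 0.0563 CPM.

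The machinery that makes, folds and removes proteins was higher at the wound across most of its members, with few single genes past the threshold. All 4 injured columns lay above all 4 non-injured ones in 71 of 77 cytosolic ribosomal proteins, 34 of 40 genes of ribosome biogenesis, 16 of 21 aminoacyl-tRNA synthetases and 24 of 38 proteasome subunits. Over all genes this holds for 9.81%, and over genes at 10 CPM or more for 21.2%. The list medians were 1.57, 1.19, 1.11 and 1.32 on the log2 scale, against 0.05 for genes at 10 CPM or more. In edgeR, 0 of the ribosomal proteins, synthetases and proteasome subunits were called. At an unadjusted p under 0.05, 67, 16 and 32 of them were higher against 6.67% of all genes, and DESeq2 called 61, 14 and 31 higher against 3.92%. Ribosomal protein genes have many processed pseudogenes of near-identical sequence, and how the authors' counting divided such reads cannot be told from these tables. Rplp0, a stalk protein of the ribosome, stood at 1098 and 619 against 332 and 199.8 CPM (log2 difference 1.68, SE 0.39, adjusted p = 0.0836).

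Of the genes of ribosome biogenesis, 2 rose. Npm1, the ribosome assembly chaperone nucleophosmin, rose to 205 and 196 CPM from 42.0 and 46.1 CPM (log2 2.19, adjusted p = 0.0293). Ncl, nucleolin, rose to 383 and 411 CPM from 86.9 and 116 CPM (log2 1.98, adjusted p = 0.035). Of 33 heat shock proteins and chaperones, Hsp90aa1 (890.0 and 582 against 241 and 146 CPM) and Cct5, a subunit of the TRiC chaperonin (648 and 270.1 against 137 and 99.5 CPM), rose. Hspa8, the constitutive heat shock cognate protein, stood at 5327 and 2834 against 2531 and 1354 CPM (adjusted p = 0.141).

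Of 26 genes of the unfolded protein response, 3 rose, against 0.472% of all genes. In 14 all injured columns lay above the non-injured ones, against 9.81% of all genes and 21.2% of those averaging 10 CPM or more. In none did they lie below. Hspa5, the main chaperone of the endoplasmic reticulum, rose 3.02-fold, to 5852 and 2624 CPM from 1898 and 889 CPM (adjusted p = 0.0432). Creld2 and Manf, both secreted under endoplasmic reticulum stress, rose by 2.06 and 2.02 on the log2 scale. In the integrated stress response, 2 of 29 genes rose. They were Trib3, given above and counted in both lists, and Mthfd2, a mitochondrial enzyme of one-carbon metabolism (100.4 and 77.8 against 22.7 and 13.7 CPM). The stress-induced phosphatase subunit Ppp1r15a stood lower at the wound, at 379 and 154 against 856 and 187 CPM (adjusted p = 0.553).

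**Figure D3:**
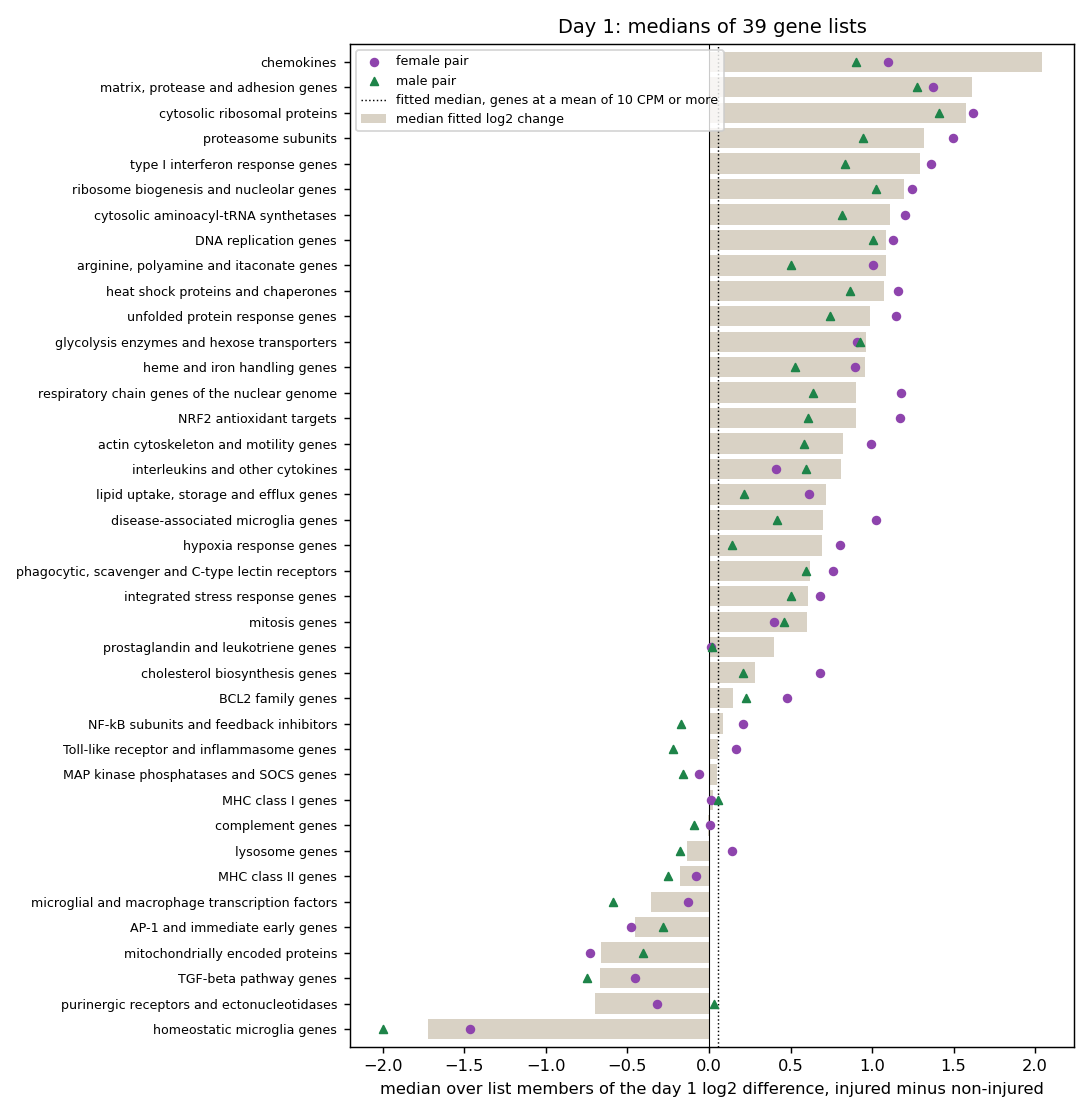
Median over the tested members of each of 39 gene lists of the day 1 log2 difference, injured minus non-injured. Bars are medians of the fitted changes, points the medians of the female and the male pair with 1 CPM added, and the dotted line the fitted median of genes at a mean of 10 CPM or more, 0.05. Among the bars, homeostatic genes lie lowest at -1.72 and chemokines highest at 2.04.

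Genes of DNA replication and of mitosis were set side by side. In 25 of 42 replication genes all injured columns lay above the non-injured ones, and the list's median log2 change was 1.09 at day 1 and 2.02 at day 4. In 6 of 35 mitosis genes they did, a share (17.1%) between that of all genes (9.81%) and of genes at 10 CPM or more (21.2%), and the median was 0.60 at day 1 and 1.82 at day 4. In edgeR, 0 of both lists were called at day 1. At an unadjusted p under 0.05, 14 replication and 0 mitosis genes were higher, and DESeq2 called 8 and 0. Pcna, the sliding clamp of the replication fork, stood at 173 and 96.3 against 43.5 and 33.5 CPM (adjusted p = 0.0535). Mcm6, a subunit of the replicative helicase, stood at 238 and 111 against 70.1 and 47.7 CPM. Mki67 (27.1 and 9.70 against 20.3 and 6.76 CPM) and Top2a (37.3 and 14.5 against 25.8 and 9.13 CPM), which mark cycling cells, differed more between the sexes than between the sides.

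The genes of lipid-handling and disease-associated microglia were split at day 1. Of 32 disease-associated genes, 7 rose, and the list's median log2 change was 0.70 at day 1, against 2.57 at day 4, 2.04 at day 7 and 2.25 at day 14. Lpl, the lipoprotein lipase, rose 42.8-fold, to 490.2 and 602 CPM from 11.8 and 13.6 CPM (SE 0.56, adjusted p = 0.00746), alongside Spp1, Lgals3, Lilrb4a and the glucan receptor gene Clec7a (log2 3.17). Apoe, the lipid carrier of the brain, was lower at the wound at day 1, at 979 and 183 against 3178 and 483 CPM, and its log2 difference was -1.55 at day 1 (adjusted p = 0.361) and 2.28, 4.64 and 5.03 later. Trem2, a lipid-sensing receptor of microglia, stood at 502 and 259 against 1118 and 799 CPM (adjusted p = 0.117). Cst7, Itgax and Igf1, 3 widely used genes of this state, had log2 differences of 0.67, 0.48 and 0.62 at day 1 and of 3.76, 2.08 and 4.94 at day 4. For none of these 5 genes was day 1 called different from the mean of the later days (adjusted p for Apoe = 0.235).

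Of 30 genes of lipid uptake, storage and efflux, 5 rose. They were Ch25h, Msr1 and Lpl, described above, the fatty acid translocase Cd36 (242 and 215 against 20.1 and 1.83 CPM) and the lipid droplet protein Plin2 (1316 and 496 against 86.8 and 25.6 CPM). The cholesterol exporter Abcg1 did not pass the test (1905 and 213 against 1264 and 353 CPM). Of 36 lysosome genes, 3 rose and 2 fell, and the median log2 change was -0.14 (0.09 without the day 1 male pair). Gla, the alpha-galactosidase (161 and 45.5 against 9.35 and 5.94 CPM), the tetraspanin Cd63 (1530.4 and 418 against 325 and 96.0 CPM) and the cathepsin Ctsc (7004 and 2256 against 1653 and 914 CPM) rose. The cathepsin Ctsf (76.2 and 50.5 against 379 and 287 CPM) and the mannosidase Man2b1 (389.6 and 311 against 1337 and 1526 CPM) fell. Ctsd, the main aspartic protease of lysosomes, stood at 7102 and 4887 against 9739 and 9017 CPM with a log2 difference of -0.67 at day 1 and 3.03 at day 4.

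Of 40 matrix, protease and adhesion genes, 24 had all injured columns above the non-injured ones. This held for 9.81% of all genes and 21.2% of those averaging 10 CPM or more. In edgeR 8 rose, against 0.472% of all genes. Besides Mmp12, Adam8 and Spp1 they included Cd44, the hyaluronan receptor (148 and 135 against 8.83 and 4.09 CPM), Plaur, the urokinase receptor (504 and 104 against 49.3 and 13.3 CPM), Itga5, the fibronectin-binding integrin chain (315 and 260.1 against 15.5 and 33.8 CPM), and Thbs1, thrombospondin 1 (141 and 132 against 14.0 and 7.58 CPM). Of 40 actin and motility genes, 4 rose: the capping protein Capg (1514 and 312 against 142 and 29.6 CPM), the tropomyosin Tpm4, and the actin-binding proteins Tmsb4x (6286 and 3389 against 1651 and 1375 CPM) and Pfn1. Actb, the cytoskeletal actin, stood at 87569 and 19732 against 19980.0 and 11078 CPM without passing the test (adjusted p = 0.147).

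Of 32 phagocytic, scavenger and C-type lectin receptors, 7 rose, among them Clec4d (44.8 and 35.1 against 2.05 and 0.366 CPM), a partner of Clec4e. Mertk, the receptor for phosphatidylserine bridging ligands on resting microglia, stood lower at the wound, at 104 and 118 against 221 and 426 CPM (adjusted p = 0.0813), and the Fc receptor Fcgr3 at 2883 and 733 against 3032 and 1234 CPM. Of 32 Toll-like receptor and inflammasome genes, Cd14, the endotoxin co-receptor, was the one that rose. It stood at 11225 and 3816 CPM against 755 and 345 CPM (log2 3.68, SE 0.55, adjusted p = 0.0235). Tlr2 stood at 914 and 571 against 298 and 159 CPM (adjusted p = 0.0843).

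Prostaglandin and leukotriene genes held 1 rise and 2 falls among 24. Ptges, the inducible prostaglandin E synthase, rose to 53.6 and 38.8 CPM from 3.74 and 0.197 CPM (log2 4.87, adjusted p = 0.0299), with a log2 difference of 0.10 at day 4. Ptgs2, the inducible cyclooxygenase, was higher in both sexes without passing the test, at 324 and 251 against 9.0 and 3.58 CPM (adjusted p = 0.0615). Ptgs1, the constitutive cyclooxygenase of microglia, fell to 384 and 298 CPM from 1182 and 1168 CPM. Ltc4s, the leukotriene C4 synthase, fell to 60.9 and 12.7 CPM from 501 and 154 CPM (log2 -3.31), with 0.21 at day 4.

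Antigen presentation and complement showed no called gene at day 1. Of 18 MHC class I, 11 class II and 21 complement genes, 0 were called in edgeR. At an unadjusted p under 0.05, 1, 0 and 5 of them were higher and 0, 4 and 3 lower, and DESeq2 called 4 class II genes lower and 4 complement genes higher and 2 lower. B2m, the common subunit of MHC class I, stood at 1649.8 and 1201 against 1600.3 and 1255 CPM, and its log2 difference of -0.01 at day 1 was followed by 2.15 at day 4. The invariant chain Cd74 was at 923 and 187 against 692 and 75.6 CPM, and C1qb, a subunit of the complement initiator C1q, at 5465 and 3144 against 6905 and 4288 CPM. Of 13 proteins encoded in mitochondria, 0 were called in edgeR or DESeq2 and 0 had an unadjusted p under 0.05. Of 51 nuclear genes of the respiratory chain, 49 were higher at the wound in both sexes, as were 3357 of the 8464 genes averaging 10 CPM or more. The list's median log2 change was 0.90, against 0.05 for genes at 10 CPM or more. In edgeR 0 of the 51 were called, 7 were higher at an unadjusted p under 0.05 and DESeq2 called 6 higher. Of 24 cholesterol biosynthesis genes, 0 were called in either, and 0 had an unadjusted p under 0.05. Of 24 MAP kinase phosphatase and SOCS genes, 0 were called in edgeR, 2 were higher and 5 lower at an unadjusted p under 0.05, and DESeq2 called 1 higher and 3 lower. Among 17 BCL2 family genes 1 fell, Bmf, which promotes cell death (log2 -3.72), named after its value was seen. Mitochondrial transcripts took 0.697% and 1.71% of counts at the wound and 1.37% and 1.93% on the other side.

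Several of the largest falls were genes of neurons. Dlgap3 and Shank1, scaffold proteins of the postsynaptic density, stood at 0.995 and 0.32 and at 2.59 and 2.31 CPM at the wound, against 41.4 and 26.1 and 102 and 54.0 CPM. Nefl, the light neurofilament gene (1.86 and 0.172 against 35.8 and 31.5 CPM), fell as well. Of 15 neuron markers, 4 were called lower (against 0.58% of all genes) and 14 had all injured columns below the non-injured ones (against 15.6%). They summed to 30.1 and 53.0 CPM at the wound and to 783 and 485 CPM on the other side, where Camk2a held 339 and 304 CPM. Gad2, which marks inhibitory neurons, was at 0 CPM in both wound libraries, where 0 counts allow up to 0.0995 and 0.0737 CPM, and at 1.86 and 1.89 CPM on the other side. Astrocyte markers summed to 294 and 191 CPM at the wound and 849 and 806 CPM on the other side (0 of 13 called in edgeR, 5 lower at an unadjusted p under 0.05 against 8.72% of all genes, 4 called lower by DESeq2 against 4.7%), and their exception was Gfap, at 60.9 and 81.1 against 13.5 and 11.5 CPM. Endothelial markers summed to 185 and 51.9 CPM against 757 and 192 CPM, and edgeR called 1 of 13, Ocln, lower. At an unadjusted p under 0.05, 10 were lower, against 8.72% of all genes, and DESeq2 called 10 lower, against 4.7%. Oligodendrocyte markers summed to 774 and 226 CPM against 3517 and 898 CPM, and edgeR called 2 of 11, Mbp and Mobp, lower. Of the 11, 4 were lower in both sexes and 2 higher in both, and the list's median log2 change was -0.24. In 2 of them all injured columns lay below the non-injured ones, against 15.6% of all genes. The part of RNA from such cells in the falls named here was not tested.

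Markers of blood leukocytes were present in small amounts. The 15 monocyte markers summed to 1962 and 923 CPM at the wound and 924 and 227 CPM on the other side, of which the lysozyme Lyz2, which microglia also express, held 1767 and 848 and 728 and 189 CPM. Chil3 (10.3 and 10.2 against 0.0269 and 0.394 CPM) and Hp rose. Ccr2, the receptor that brings monocytes out of the marrow, was at 19.4 and 10.9 against 12.9 and 7.38 CPM, and Ly6c2 at 2.19 and 4.55 CPM at the wound against 0 in both libraries of the other side (up to 0.0808 and 0.0844 CPM). Of 15 neutrophil markers, S100a8 (62.0 and 14.8 CPM against 0.404 and 0 CPM, where 0 counts allow up to 0.0844 CPM), S100a9 (24.7 and 7.97 against 0.0808 and 0.0282 CPM) and Cxcr2 (26.0 and 3.30 against 0.189 and 0.0563 CPM) rose, while Ly6g, Ngp, Camp, Mpo and Elane were each at 0 CPM in the female wound library (up to 0.0995 CPM) and at no more than 0.664 CPM in the male one. Of the 15, 9 were higher at the wound in both sexes, among them Mmp8, Mmp9, Retnlg and Il1r2, and 1 was lower in both. In 7 all injured columns lay above the non-injured ones, against 9.81% of all genes, and in 1 below, against 15.6%. At an unadjusted p under 0.05, 7 were higher and 1 lower, against 6.67% and 8.72% of all genes. DESeq2 called 5 higher and 1 lower, against 3.92% and 4.7%. The whole neutrophil list summed to 286 and 138 CPM against 433 and 437 CPM. Csf3r, which microglia also express, held 136 and 99.5 and 429 and 435 CPM of it. Border-associated macrophage markers summed to 823 and 665 CPM against 798 and 369 CPM, with 0 of 13 called in edgeR (1 higher and 2 lower at an unadjusted p under 0.05, the same numbers in DESeq2). Of the T cell, NK cell, B cell, dendritic cell and mast cell markers, edgeR called 0 higher and Ighm and Siglech lower. Siglech is also one of the homeostatic genes described above. At an unadjusted p under 0.05, 2 of 8 NK cell and 1 of 10 dendritic cell markers were higher (against 6.67% of all genes). At the same threshold 4 of 10 dendritic cell, 2 of 9 B cell and 1 of 12 T cell markers were lower (against 8.72%). DESeq2 called 1 dendritic cell marker higher (against 3.92%), and 3 dendritic cell and 2 B cell markers lower (against 4.7%). The part of these cells in the rises was not tested.

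**Figure D4:**
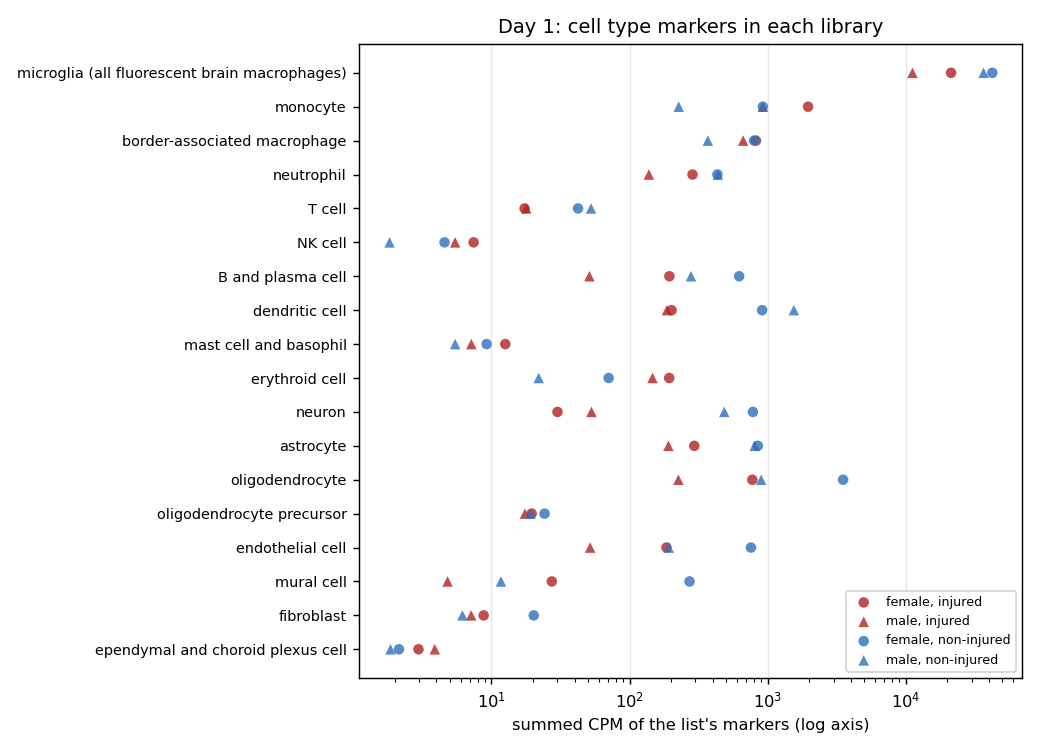
Summed CPM of the markers of 18 cell types in each of the 4 day 1 libraries, on a log axis. Circles are female, triangles male, red the injured and blue the non-injured side. Neuron markers lie at 30.1 and 53.0 CPM at the wound and 783 and 485 CPM on the other side, and monocyte markers are higher at the wound within each sex.

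Day 1 was next set beside the later days, whose injured and non-injured libraries are their own. At day 4, 584 genes were called (2.04%), 435 of them higher (1.52%) and 149 lower (0.521%). At day 7 the number was 107 (0.374%), with 91 higher (0.318%) and 16 lower (0.0559%). At day 14 it was 17 (0.0594%), with 13 higher (0.0455%) and 4 lower (0.014%). Of the 135 rises of day 1, 91 were also among the 435 of day 4, 34 among the 91 of day 7 and 6 among the 13 of day 14. Of the 166 falls, 54 were among the 149 of day 4, 8 among the 16 of day 7 and 2 among the 4 of day 14. The median log2 change of the day 1 rises was 3.78 at day 1 and 3.20, 2.43 and 2.01 later. That of the falls was -3.44 at day 1 and -1.70, -1.38 and -1.26 later. Since these genes were called at day 1, a larger change there is built into the choice.

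The difference between day 1 and the mean of the 3 later days was tested directly for each gene. In edgeR, 0 of 28597 genes (0%) were called, with 2100 at an unadjusted p under 0.05. DESeq2 called 296 (81 higher and 215 lower at day 1), and limma on log2 TPM called 6. By edgeR, therefore, no gene named here is shown to be particular to day 1. The values of 3 genes, chosen after they were seen, follow. Ptges had log2 differences of 4.87, 0.10, 2.29 and -1.38 at days 1, 4, 7 and 14, and Plk2, a kinase induced by stress, 3.80, 0.56, 1.27 and 0.40. Abca9, a lipid transporter of the ABC family, had -4.21, -1.83, -1.40 and -0.55. Ribosome biogenesis genes had medians of 1.19, 0.58, 0.65 and 0.17, and homeostatic genes of -1.72, -0.79, -0.82 and -0.83.

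**Figure D5:**
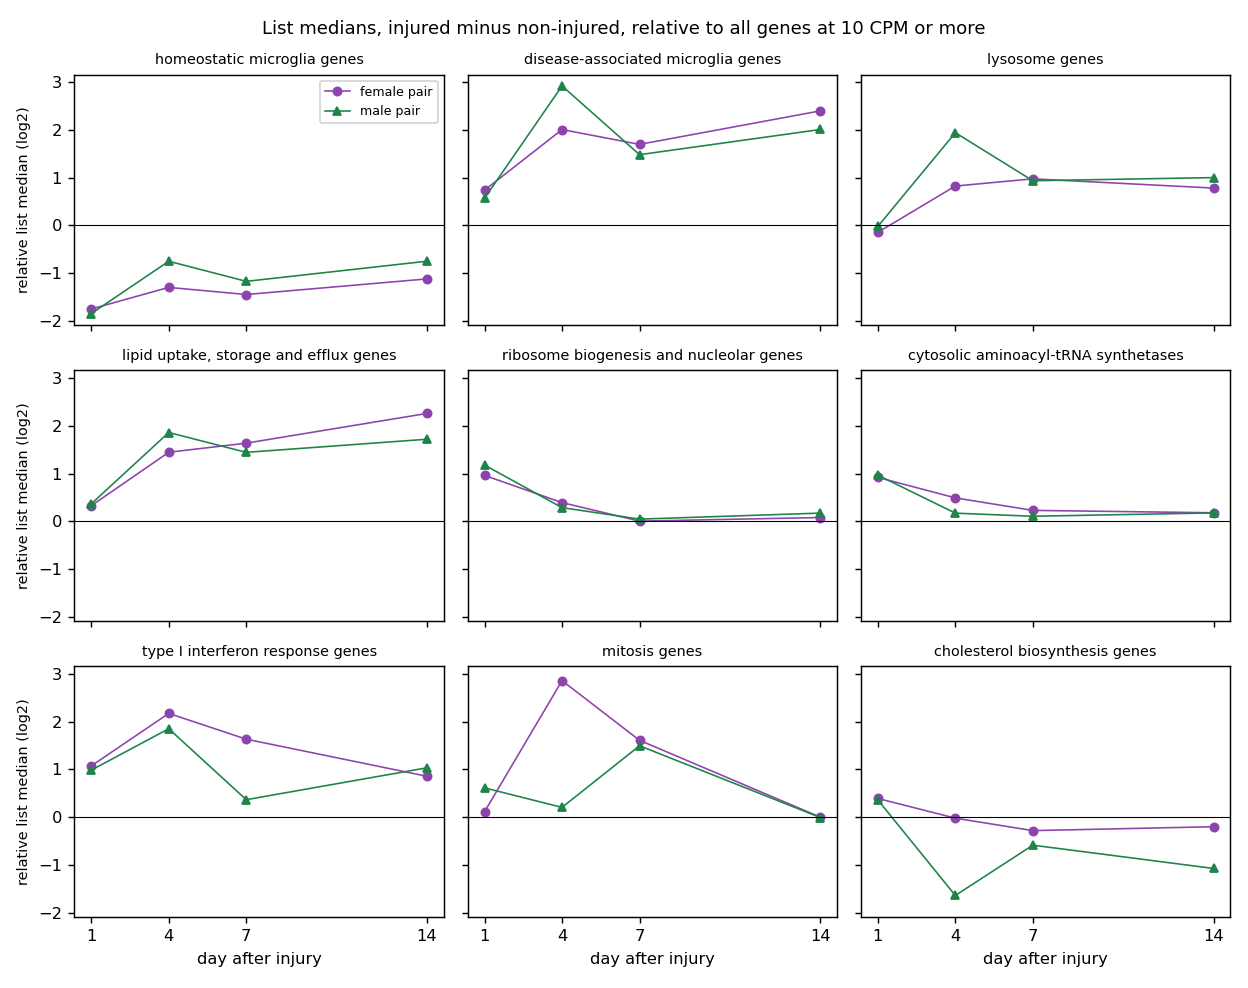
Median log2 difference, injured minus non-injured, of 9 gene lists at days 1, 4, 7 and 14 after injury in the female and male pairs, relative to the median of genes at a mean of 10 CPM or more. At day 1 both pairs lie near -1.8 for homeostatic genes and near 0 for lysosome genes, which lie between 0.78 and 1.94 at the later days.

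The female and the male injury effect at day 1 were compared as well. In edgeR, 0 of 28597 genes (0%) differed at an adjusted p under 0.05, with 486 at an unadjusted p under 0.05. DESeq2 called 13, all with a lower log2 difference in the female than in the male pair, and limma called 0. The test compared injury effects and not levels. Spp1 stood at the wound at 8274 CPM in the female and 1957 CPM in the male library. Its log2 differences with 1 CPM added were 6.75 and 7.75. Of genes picked because their 2 effects lay further apart, edgeR did not call Cd36 (3.52 and 6.25), Lilrb4a (4.88 and 7.61) or Mmp12 (7.72 and 5.75) either.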

How the data were processed

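RNA of sorted EYFP+ cells was made into libraries with SMART-Seq v4 and Nextera XT, which do not mark strand, per the labels' protocols. The deposited count table holds estimated counts per gene and the deposited TPM table depth- and length-scaled levels, and Salmon 1.0.0 and DESeq2 1.26.0 are listed in the submitters' processing notes. For the genome build and annotation, nothing is given in the sources used. The authors' deposited day 1 tables give a mean normalized signal, a log2 fold change, its standard error (classed as a score) and p-values, raw and adjusted.

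A few genes are not reported here. Groups were taken from the sample labels. The 2 columns of each group were summed and rounded to whole counts, giving 16 libraries from 32 columns, with 26003119 to 36619372 counts at day 1. Genes were kept by filterByExpr at a minimum count of 10, which left 28597 of 55385, and 18373 of these are protein-coding. Counts were tested with edgeR 4.0.16 (TMM factors, quasi-likelihood, R 4.3.3), with 8 means of day-by-sex pairs and 4 day effects of injury (4 residual degrees of freedom, prior 5.32), Benjamini-Hochberg adjustment over all genes tested and a threshold of 0.05. The sex difference left 3 residual degrees of freedom. Adjusted p-values, SEs and log2 changes in the text are edgeR's unless another tool is named. CPM were computed per 1000000 of the library size times its TMM factor. The test was also run on simulated data. Fold changes are given where the lower side held at least 10 counts.

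Gene symbols came from the authors' day 1 table, positions from GENCODE M21 (GRCm38) for 55144 of the IDs, and promoters from RefSeq (GRCm38.p6). The members, gene lists and tests were chosen with earlier results of these data known. Of 1317 list symbols, 3 had no match. Named genes were the 15 largest rises and falls and the 10 smallest p-values among called genes averaging 10 CPM or more with non-overlapping sides (predicted models, pseudogenes and receptor segments left out), up to 4 called and 2 uncalled members per list, Cx3cr1 and the markers of other cell types. Ccl2, Il6, Ifit3, Isg15, Jun, Fos, Egr1, Glrx, Ldha, Gapdh, Odc1, Nos2, Pcna, Mki67, Clec7a, Trem2, Cst7, Itgax, Igf1, Plin2, Ctsc, Plaur, Itga5, Thbs1, Mertk, Ptgs2, Plk2, Selplg, Gpr34, Sparc, Crybb1, Vsir, Selenop and Hacd4 were chosen after their values were seen. Alternatives were other size factors, other filters, DESeq2 1.42.0, limma 3.58.1 on log2(TPM + 1), day 1 alone, other designs, single columns and leaving out each pair.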

Additional observations from a re-analysis of the deposited data

Results flagged for a closer look

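This search took the 39 gene lists and those called genes averaging 10 CPM or more that were picked for naming. Of these, 2 lists and 2 genes lay on one side in both day 1 pairs and on the other in all 6 later pairs. Other genes were not searched in this way. For the lists, the difference was not tested. These are log2 differences of injured minus non-injured with 1 CPM added, and list medians are given relative to the median of genes at a mean of 10 CPM or more. The median of 24 cholesterol biosynthesis genes was 0.377 on average over the day 1 pairs (0.392 and 0.362), and between -1.64 and -0.021 in the later pairs. Without the subtraction it was 0.678 and 0.21 at day 1, and the female pairs of days 4 and 7 lay on the same side, at 0.409 and 0.421. The median of 36 lysosome genes was -0.084 on average at day 1 (-0.146 and -0.023), and between 0.781 and 1.94 later. Without the subtraction the day 1 pairs lay on opposite sides, at 0.14 and -0.175. Selenop, which encodes a secreted selenium carrier, averaged -1.86 at day 1 (-1.42 and -2.31), and lay between 0.407 and 1.33 later. Hacd4, an enzyme of very long fatty acid synthesis, averaged -2.81 at day 1 (-2.48 and -3.14), and lay between 1.84 and 3.09 later. Both genes were chosen after their values were seen. The edgeR test of day 1 minus the mean of the later days did not call them (log2 -2.68, adjusted p = 0.19 for Selenop, and log2 -5.67, adjusted p = 0.107 for Hacd4).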

How the results depend on the processing

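All 301 day 1 calls kept their direction under each alternative that tested them (300 of them tested at a minimum count of 50), and no called gene that the text or the lists name changed sign under any alternative. Of 57 list medians 14 changed sign under at least 1 alternative, as did 62 of 419 genes, none of them called. The median of purinergic genes ranged from -0.763 to 0.11, of lysosome genes from -0.404 to 0.086, of MHC class II genes from -0.48 to 0.113 and of border-associated macrophage markers from -1.138 to 1.706. The number called moved: 538 with median-ratio size factors, 101 without a filter on low counts (101 of them among the 301), 1081 at a minimum count of 50, 2463 with DESeq2, 565 with limma on log2(TPM + 1), 1576 with the day 1 libraries only, 12 without pair means and 1487 with edgeR's older dispersion trend, chosen after seeing the data. Leaving out 1 pair gave 0 to 845 calls, and leaving out column 1 or 2 of each group 396 and 366. The share of calls that were higher was 44.9%, against 57.3% at a minimum count of 50, 91.7% without pair means, 61.5% and 57.5% without the day 7 female or male pair, 35.4% with limma and 36.9% with the older trend. The median of all genes moved by -0.21 (log2) with limma, by 0.11 at a minimum count of 50 and by 0.14 without the day 14 male pair.

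With columns as separate samples, 12918 genes were called with no replicate block and 8512 with a replicate block. For day 1 minus the later days these fits called 7964 and, with the block, 4284, and for the sex difference 3698 and, with the block, 974. The numbers did not pair the samples (correlations of deviations between -0.0204 and 0.0841 over 8 pairs), and the columns differ by about counting noise, so that such counts treat 1 library as 2 samples. Day 1 minus the later days gave 1 call at a minimum count of 50, 296 with DESeq2, 6 with limma, 309 with the older trend and 0 to 25 when 1 pair was left out (25 without the day 4 female and 3 without the day 4 male pair). The sex difference gave 13 with DESeq2, 1 with the older trend and 0 when any later pair was left out. The causes were not tested. With 1 library per sex and side, the spread rests on 4 residual degrees of freedom.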

Other observations

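Genes of the circadian clock were chosen after their values were seen, and Nr1d1 is also named above. Of 14, 4 fell at day 1, where 0.58% of all genes did: the repressors Nr1d1 (7.30 and 3.35 CPM at the wound against 60.8 and 43.7 CPM) and Nr1d2 (7.79 and 12.7 against 44.7 and 65.1 CPM), the period gene Per3 (32.7 and 10.7 against 108 and 61.1 CPM) and Hlf, a PAR-domain transcription factor, at 0 and 0.0738 CPM against 6.79 and 10.2 CPM, where 0 counts allow up to 0.0995 CPM. Dbp and Tef, of the same family as Hlf, did not pass the test, at 2.72 and 2.09 against 20.6 and 27.2 CPM (edgeR adjusted p = 0.0928) and 11.1 and 17.8 against 52.7 and 52.5 CPM (edgeR adjusted p = 0.231). The core activators Clock (26.5 and 25.1 against 18.9 and 31.4 CPM) and Arntl (11.0 and 3.17 against 10.2 and 8.37 CPM) did not pass it either. At day 4 the log2 difference was -2.97 for Nr1d1, -1.07 for Nr1d2 and -1.83 for Per3. Both sides come from wounded mice, and the hour of collection is not given in the sources used here.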
